A study of Homo sapiens with 3 samples.

Results

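Histone genes encode the proteins around which DNA is wound, and their transcripts were examined here for A-to-G changes in a HyperTRIBE experiment on DDX41. The genes were taken by name: every gene in the deposited site lists whose name starts with HIST, and 7 further names, H2AFZ, H2AFV, H2AFX, H2AFY, H3F3A, H3F3B and H1FX. With positions given for more than 1 gene name counted once, they held 300 of the 16820 distinct listed positions, in 61 genes (54 HIST genes and the 7 others). Of these genes, 5 encode H1, 19 H2A, 14 H2B, 12 H3 and 11 H4, and 45 lie on chromosome 6 and 9 on chromosome 1.

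The cells were THP-1, a human leukemia line of monocytic character, and there were 3 libraries, 1 per group. The first group carried the empty pGK-GFP retrovirus with no transgene, the second the same retrovirus with the hyperactive ADAR catalytic domain (ADARcd alone), and the third that retrovirus with DDX41 joined to the domain (DDX41-ADARcd, the fusion). All 3 were transduced and grown for 7 days before total RNA was taken. The labels name no deletion of the cells' own DDX41 or ADAR in any group, and no label says whether transduced cells were sorted. Of 12 monocytic marker genes fixed for the line, 7 had listed positions for ADARcd alone: AZU1 16, LYZ 12, CTSG 11, ELANE 7, FCER1G 3, TYROBP 2 and SPI1 1. In the fusion 5 were listed against the empty vector and 6 against ADARcd alone, among the latter CSF1R with 1 position. CD14, CD33, MPO and ITGAM were in no list. Of the other markers, 0 of 3 erythroid, 0 of 3 T cell and 0 of 3 B cell genes were listed in any list. A gene is listed only with an edited read, so the absence of a marker does not give its level.

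In HyperTRIBE an RNA-binding protein carries an adenosine deaminase domain to its RNAs, and the inosines it makes are read as G. DDX41 is a DEAD-box helicase mutated in myeloid neoplasms, and the design asks which RNAs it meets beyond those the free domain edits. Most HIST genes are replication-dependent: they are expressed in S phase, have no introns and end in a conserved stem-loop bound by SLBP in place of a poly(A) tail. The replacement variants are expressed outside S phase too, mostly from spliced and polyadenylated transcripts. H1 binds the linker DNA, and H2A, H2B, H3 and H4 form the nucleosome core. No label says whether polyadenylated RNA was selected.

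The positions that carry the comparison between the transduced libraries are the 12 listed for both of them against the empty vector, in 10 genes. They are shown on the transcribed strand from GENCODE 29 transcripts (GRCh38), 5′ to 3′, with the A that was read as G in capitals.
HIST1H1B, chr6:27866918: caaagcccaaAgccgctaagc
HIST1H1C, chr6:26056023: tggggcagccAagaagcccaa
HIST1H1E, chr6:26156901: caaaaaagcgAaaagcccgaa
HIST2H2AB, chr1:149887690: gacaacaagaAgacgcgcatc
HIST1H2BE, chr6:26184134: acgctgtgtcAgagggcacca
HIST1H2BK, chr6:27146545: gcgcattacaAcaagcgctcg
HIST1H2BK, chr6:27146583: acatcttcgaAcgcatcgcgg
HIST2H2BE, chr1:149886523: gagctactccAtctacgtgta
HIST2H2BE, chr1:149886536: gcagccgcaaAgagagctact
HIST2H2BF, chr1:149812184: aaggtgctgaAgcaggtccac
HIST1H4F, chr6:26240658: gagcacgccaAgcgtaagaca
HIST1H4I, chr6:27139501: gttcctggagAacgtgatccg
All 12 lie in coding exons, 8 of them at bases where G changes the amino acid.

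The positions of HIST2H2BE are 13 bases apart, and the same stretch of other H2B genes is shown because it holds G there. Each line gives coding bases 97 to 126 of the gene, and the capitals mark what stands at the positions read as G in HIST2H2BE.
HIST2H2BE: agccgcaaAgagagctactccAtctacgtg
HIST1H2BO: agccgcaaAgagagttactctAtctacgtg
HIST1H2BJ: agccgcaaGgagagctattccAtctatgtg
HIST2H2BF: agccgcaaGgagagctactccGtttacgtg
HIST1H2BK: agccgcaaGgagagctactccGtatacgtg
HIST1H2BL: agccgcaaGgagagctactccGtgtacgtg
Of the 13 other H2B genes with a listed position, 12 have G at the first of these positions and 10 at the second, and 10 have G at both. HIST1H2BO has A at both.

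The 3′ ends of 3 genes with positions past the coding sequence are shown for their stem-loop, whose letters are in capitals.
HIST1H2AC: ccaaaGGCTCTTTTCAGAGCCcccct
HIST1H2BC: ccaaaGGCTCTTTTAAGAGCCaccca
H2AFX: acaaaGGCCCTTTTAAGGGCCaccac
The letters searched were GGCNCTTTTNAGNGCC, on the sense strand of every annotated transcript. They were read from the transcripts, as the run with a self-complementary stem that occurs in more HIST genes than any other such run, with N where like runs of HIST genes vary. They occurred in 34 of 90 HIST gene names of the annotation (37.8%) and in 6 of 57043 other names (0.0105%), and in 22 of the 61 genes described here.

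The deposited data are 3 lists of positions, each comparing 2 libraries: ADARcd alone against the empty vector (the ADARcd list), the fusion against the empty vector (the fusion list) and the fusion against ADARcd alone (the direct list). A position is listed where the first library has an edited read or more and the other has 0. A 0 in the second library of a list thus follows from this rule and is not a result. Histone genes held 178 of 6413 positions of the ADARcd list (2.78%, in 50 genes), 96 of 3516 of the fusion list (2.73%, in 43 genes) and 122 of 10407 of the direct list (1.17%, in 48 genes). Against the empty vector the 2 transduced libraries thus had close shares. All 3 lists named 35 of the 61 genes, 10 genes were in 2 lists and 16 in 1. The ADARcd list alone named 12 genes (19.7%, against 4.51% of the 4143 genes in any list), and 11 had no position in it (18.0%, against 70.5%), where the direct list names most of all genes. Of the 57 histone genes in either list against the empty vector, 36 were in both (63.2%), as were 757 of 1400 genes of any kind (54.1%). The labels and lists hold no library totals, and depth is stated per position. Intervals and floors cover counting error only, since PCR reads without molecular identifiers are not independent molecules.

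**Figure D1:**
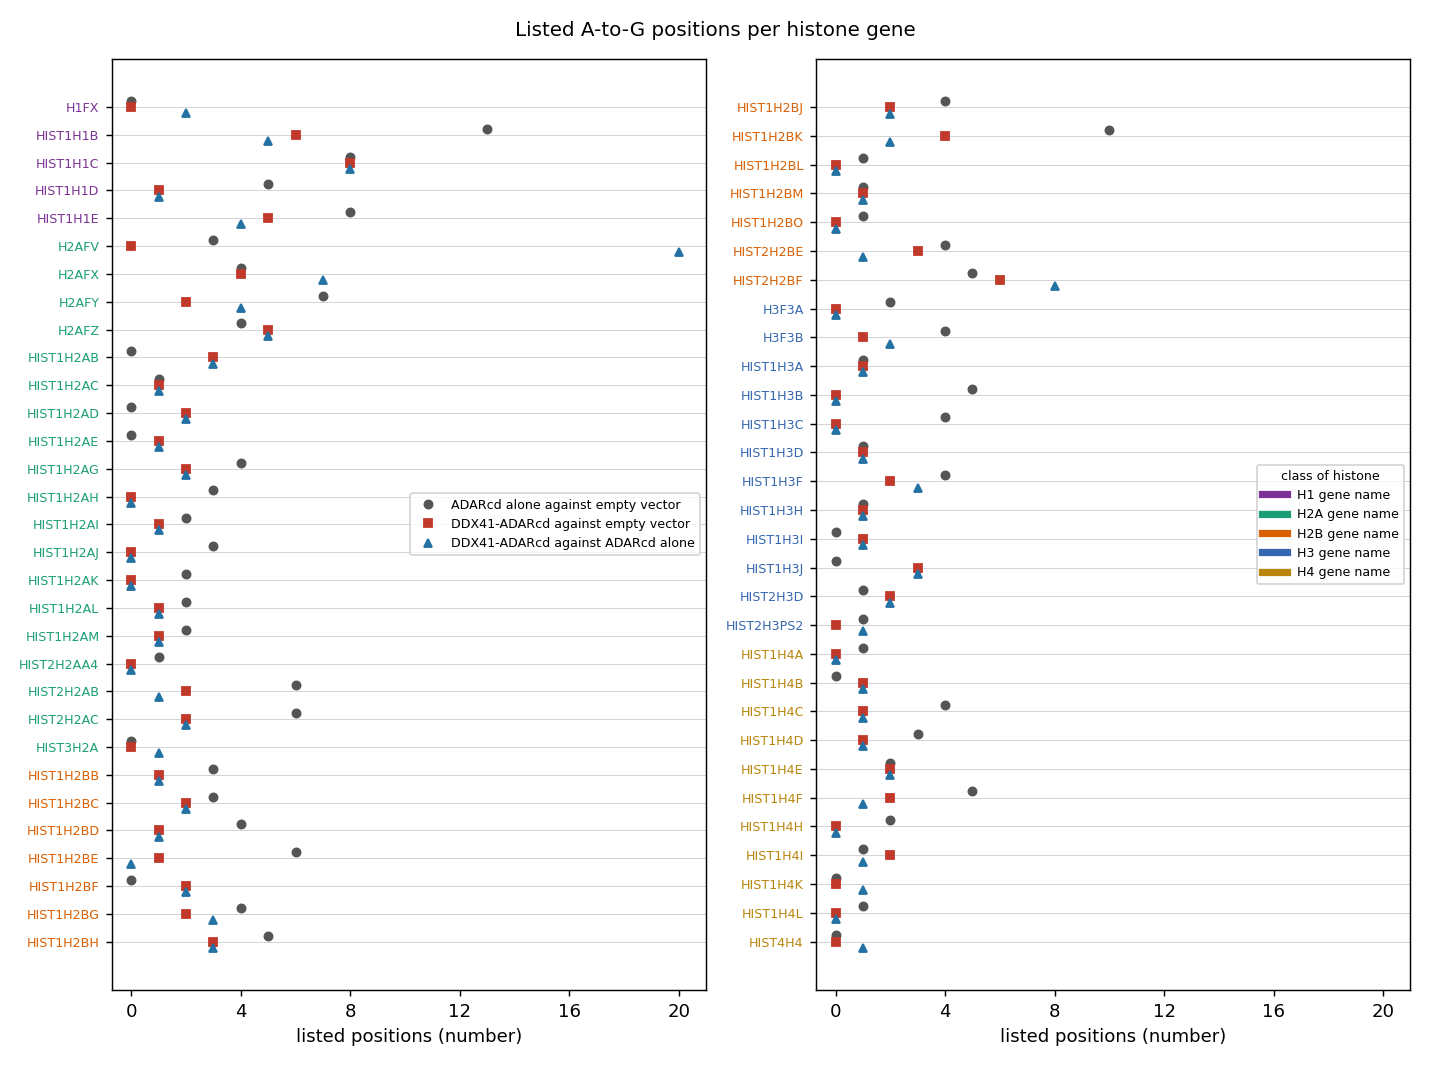
Number of listed positions (horizontal axis) for each of the 61 histone genes (vertical axis, names coloured by class), with a circle for ADARcd alone against the empty vector, a square for the fusion against the empty vector and a triangle for the fusion against ADARcd alone. HIST1H1B with 13 and HIST1H2BK with 10 lead among circles, and H2AFV with 20 triangles and 0 squares stands out on the left.

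Histone editing levels were mostly low, and most positions rested on a single edited read. The editing level, the percent of reads at a position with G on the transcribed strand, had a median of 0.276% in the ADARcd list, where the median of all its positions was 0.434%. In the fusion list the medians were 0.470% for histone genes and 0.515% for all positions, and in the direct list 0.671% and 3.70%. Positions with 1 edited read made up 141 of 178 in the ADARcd list (79.2%, exact Clopper-Pearson 95% interval 72.5 to 84.9), 75 of 96 in the fusion list (78.1%) and 94 of 122 in the direct list (77.0%). Over all positions those shares were 74.8%, 81.5% and 83.9%. With 1 edited read a level is set by the depth, and histone positions were read deeply: the median was 416.5 reads against 286 over all positions in the ADARcd list, 255 against 220 in the fusion list and 173 against 30 in the direct list.

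Among positions with 100 or more reads in the first library the histone median stayed below that of all positions in the ADARcd list, 0.273% (173 positions) against 0.348%, and was above it in the lists of the fusion. It was then 0.454% (92 positions) in the fusion list against 0.318%, and 0.470% (84 positions) in the direct list against 0.360%. Depth still differed at this minimum. The histone median was 427 reads against 357 in the ADARcd list, 265 against 368 in the fusion list and 249 against 313 in the direct list. With mostly 1 edited read per position, the order of these medians goes with depth and is not a comparison at equal depth. The highest histone level was 3.57% in the ADARcd list and 3.33% in the fusion list, where the highest of all positions were 63.9% and 67.9%. In the direct list it was 33.3%, at 6 reads in the intron of H2AFV, and the highest of all positions was 100%. Only 7 histone positions of the ADARcd list and 3 of the fusion list had 3 or more edited reads, and 0 and 2 had 5 or more. Over all positions, 260 of the ADARcd list and 30 of the fusion list had 5 or more. The number of reads with neither A nor G gives a scale for these counts: it was 100 of 81414 reads at the histone positions of the ADARcd list, beside 224 edited reads, and 27 of 30327 beside 125 in the fusion list. Listing requires an edited read and not one of another base, so the pairs of counts are not a like comparison, and the part of sequencing error in the single edited reads was not tested.

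**Figure D2:**
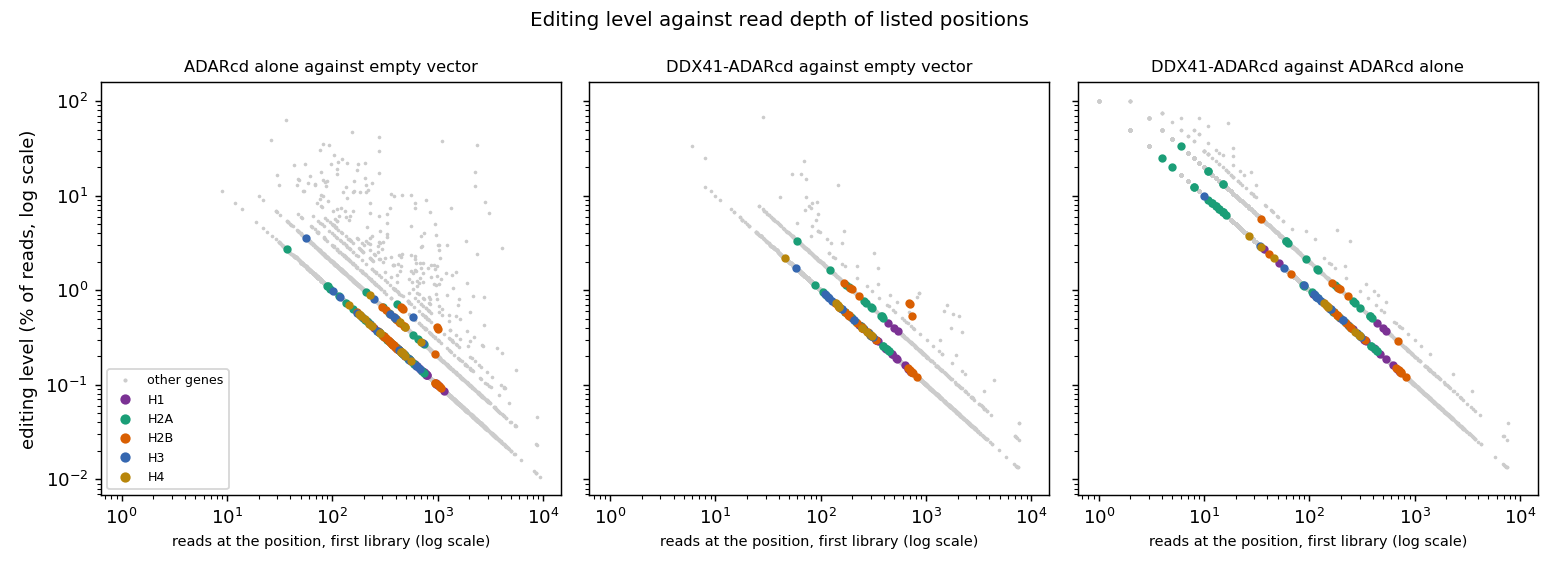
Editing level (vertical axis, percent of reads, log scale) against the reads at the position in the first library (horizontal axis, log scale) for every listed position, 1 panel per list, with histone positions coloured by class over the other genes in grey. The diagonal lines are whole numbers of edited reads, and nearly all coloured points lie on the first or second of them, with the HIST2H2BE pair above them at 0.726% and 0.717% in the fusion panel.

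A two-sided Fisher's exact test, which compares the reads of 2 libraries and not the conditions, called 0 of 178 histone positions in the ADARcd list at a Benjamini-Hochberg adjusted p under 0.05, beside 0.203% of all 6412 positions tested. It called 0 of 96 in the fusion list, beside 0% of 3512. For the fusion against ADARcd alone it called 0 of 129 histone positions, the direct list without 5 positions of under 10 reads and with the 12 shared positions added, beside 0.282% of 9227. The 26 calls behind that last percent all fell among 400 shared positions (6.5% of them). At an unadjusted p under 0.05 the same test gave 0 histone positions in each comparison, beside 0.546%, 0.0854% and 0.856% of all positions in the ADARcd, fusion and direct comparisons. The smallest histone p from Fisher's exact test was 1 against the empty vector for ADARcd alone, 0.337 for the fusion and 0.0635 for the fusion against ADARcd alone (adjusted p = 0.560), the last at an intron position of H2AFV.

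The shallow empty vector library limited this test. At the median histone depth of the ADARcd list, 416 and 51 reads, 31 edited reads (7.45%) would be needed for an unadjusted p under 0.05, and at 255 and 53 reads in the fusion list 20 edited reads (7.84%). At 192 and 326 reads for the fusion and ADARcd alone, 4 edited reads (2.08%) would do. However, 0 histone positions of the direct list had 3 or more edited reads. Over all genes the adjusted test called 0 of the 8827 tested positions of that list. A difference of the size of the histone levels measured here was therefore not detectable against the empty vector at this depth. At the median depth the same held against ADARcd alone for the histone positions of the direct list. Each group had 1 library, so no p-value here reflects a spread between cultures.

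The linker histones had the deepest reads of the 5 classes and the lowest levels. H1 genes had 34 positions in the ADARcd list, at a median of 649.5 reads and 0.154%, and all 34 had 1 edited read. HIST1H1B had 13 of them, HIST1H1C 8, HIST1H1E 8 and HIST1H1D 5. The highest level in this class was at HIST1H1D, chr6:26234740, with 1 edited read of 213 (0.469%) against 0 of 18 in the empty vector. In the fusion list H1 had 20 positions (median 0.266%, 456 reads), 8 in HIST1H1C, 6 in HIST1H1B, 5 in HIST1H1E and 1 in HIST1H1D.

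HIST1H1C was the linker gene with more than 1 edited read at a position. In the fusion it had 2 of 439 reads at chr6:26055954 (0.456%), 2 of 537 at chr6:26056014 (0.372%) and 2 of 501 at chr6:26056240 (0.399%). ADARcd alone had 0 edited reads of 677, 793 and 807 there, and the empty vector 0 of 47, 84 and 77. H1FX, a linker histone expressed independently of replication, appeared in the direct list only, with 2 positions, 1 read of 37 at the one (2.70%) and 1 of 52 at the other (1.92%). At the 3 shared linker positions each library had 1 edited read: HIST1H1B read 0.126% in ADARcd alone and 0.211% in the fusion, HIST1H1C 0.130% and 0.191%, and HIST1H1E 0.238% and 0.415%.

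Of the 15 replication-dependent H2A genes, 7 were listed against the empty vector for both transduced libraries (46.7%). Beside them stand 36 of the 61 histone genes (59.0%) and 757 of 4143 genes in any list (18.3%). The 15 include HIST3H2A, which was in the direct list only. Of all genes in either list against the empty vector, 54.1% were in both. In the ADARcd list HIST2H2AB and HIST2H2AC had 6 positions each, HIST1H2AG 4, HIST1H2AH and HIST1H2AJ 3, HIST1H2AI, HIST1H2AK, HIST1H2AL and HIST1H2AM 2, and HIST1H2AC and HIST2H2AA4 1. HIST1H2AB, HIST1H2AD, HIST1H2AE and HIST3H2A had none there. HIST1H2AH, HIST1H2AJ, HIST1H2AK and HIST2H2AA4 in turn had none in the lists of the fusion. In the fusion list HIST1H2AB had 3 positions, HIST1H2AD, HIST1H2AG, HIST2H2AB and HIST2H2AC 2, and HIST1H2AC, HIST1H2AE, HIST1H2AI, HIST1H2AL and HIST1H2AM 1. The class, variants included, had 50 positions in the ADARcd list (median 0.324%), 27 in the fusion list (0.543%) and 52 in the direct list.

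The best supported H2A position of ADARcd alone was in HIST1H2AG, chr6:27133166, with 3 edited reads of 416 (0.721%, 95% interval 0.149 to 2.09) against 0 of 44 in the empty vector. The same gene had 2 of 657 reads at chr6:27133249 (0.304%) and 2 of 407 at chr6:27133442 (0.491%). HIST1H2AC had 2 of 345 (0.580%), HIST1H2AL 2 of 210 (0.952%) and HIST2H2AC 2 of 743 (0.269%). In the fusion these genes had at most 1 edited read at any listed position.

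HIST1H2AB was listed for the fusion only. All 3 of its listed positions had 2 edited reads in the fusion, and 0 in both controls, as listing in the fusion and direct lists requires. They were 2 of 60 reads at chr6:26033180 (3.33%, 0.406 to 11.5), 2 of 122 at chr6:26033211 (1.64%) and 2 of 185 at chr6:26033349 (1.08%). ADARcd alone had 0 of 117, 205 and 279 reads there and the empty vector 0 of 11, 28 and 45. No one of these positions reached an unadjusted p under 0.05 by Fisher's exact test. HIST1H2AE had 2 of 260 (0.769%), HIST1H2AI 2 of 377 (0.531%) and HIST3H2A 2 of 63 (3.17%) in the fusion, the last in the direct list only. HIST2H2AB had 2 edited reads at positions 2 bases apart, 2 of 306 at chr1:149887688 (0.654%) and 2 of 301 at chr1:149887690 (0.664%), and at the second of them ADARcd alone had 1 of 538 (0.186%, Fisher's exact p = 0.294).

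The H2A variants differed from one another. H2AFZ, which marks promoters, had 4, 5 and 5 positions in the ADARcd, fusion and direct lists. Its position at chr4:99949718 had 2 edited reads of 270 in the fusion (0.741%) against 0 of 401 in ADARcd alone, and chr4:99948171, in the 3′ UTR, 2 of 175 (1.14%) against 0 of 256. In ADARcd alone its highest count was 2 of 401 at chr4:99948494 (0.499%). H2AFX, whose product is phosphorylated at DNA breaks, had 4, 4 and 7 positions. It had 2 of 588 reads in ADARcd alone at chr11:119095171 (0.340%), and in the fusion 2 of 390 at chr11:119095127 (0.513%) and 2 of 379 at chr11:119095225 (0.528%), where ADARcd alone had 0 of 543 and 561. H2AFY, which encodes macroH2A, had 7, 2 and 4 positions, with 2 of 302 reads in ADARcd alone at chr5:135360533 (0.662%) and 2 of 11 in the fusion at a non-coding exon (18.2%, 2.28 to 51.8).

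H2AFV stood apart within the direct list. It had 20 positions there, more than any other histone gene, 3 in the ADARcd list and 0 in the fusion list, and 18 of the 20 were intronic. On chromosome 7, 17 of these lay within 1106 bases, from chr7:44832705 to chr7:44833810, and the other at chr7:44830948. Over the 18 positions the fusion had 22 edited reads of 217 and ADARcd alone 0 of 423, where the 0 is required for listing. The fusion depth ran from 4 to 16 reads and that of ADARcd alone from 12 to 43, and levels ran from 6.25% to 33.3% with a median of 8.33%. The median level of all 656 intron positions of the direct list was 11.1%. Their median depth in the fusion was 10 reads, against 13 at the H2AFV intron positions. With mostly 1 edited read the level goes with depth, so these medians are not a comparison at equal depth. Each of 4 positions had 2 edited reads and the other 14 had 1. Those 4 were 2 of 15 at chr7:44832705 (13.3%), 2 of 15 at chr7:44832801 (13.3%), 2 of 11 at chr7:44833339 (18.2%) and 2 of 6 at chr7:44833460 (33.3%). Neighbouring positions of the cluster can share reads, so they are not independent. Of 196 genes with intron positions in that list, 6 had more than H2AFV, and the median gene had 1.

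**Figure D3:**
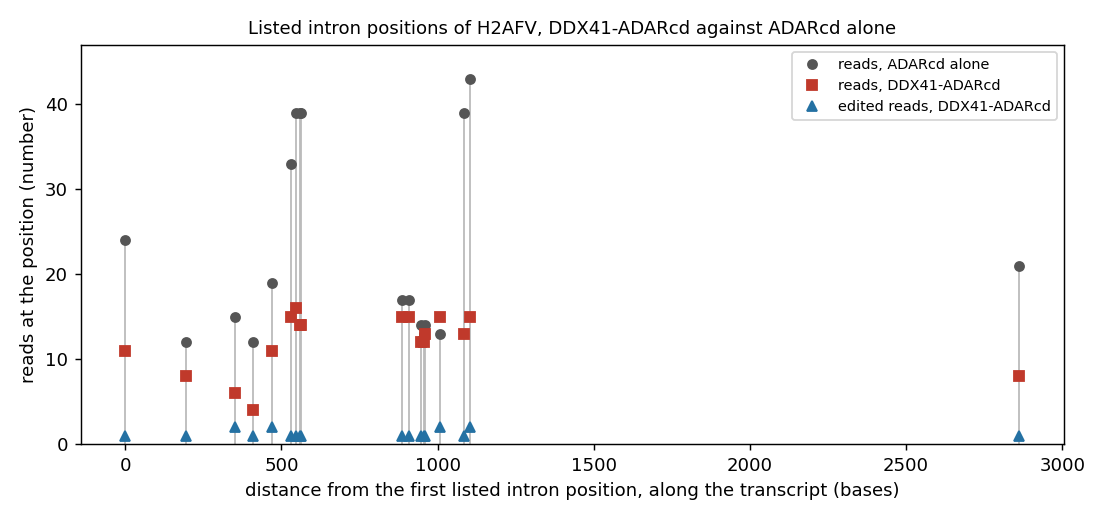
Reads at the 18 listed intron positions of H2AFV (vertical axis, number of reads) by distance along the transcript from the first of them (horizontal axis, bases): circles are reads of ADARcd alone, squares reads of the fusion and triangles edited reads of the fusion. ADARcd alone had no edited read at any of them, as listing requires, and all but 1 position fall within 1106 bases, with 1 or 2 edited reads each.

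Away from its intron H2AFV had 2 edited reads of 93 in its 3′ UTR, at chr7:44834399 (2.15%, 0.262 to 7.55), against 0 of 151 in ADARcd alone. Of the 21 intron positions of histone genes in the direct list, 18 were in H2AFV. The 21 made up 17.2% of the histone positions of that list, beside 6.30% over all its positions. That share thus rests mainly on H2AFV and does not describe the histone genes as a set. Against the empty vector, neither transduced library had an intron position in a histone gene (0 in both lists). Introns were rare there over all genes too, with 88 of 6413 positions of the ADARcd list (1.37%) and 80 of 3516 of the fusion list. A listed position needs 10 reads in the control, and the depth of the empty vector over this intron is not given in the lists.

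H2B held more positions with several edited reads in ADARcd alone than any other class. In the ADARcd list 17 of 51 H2B positions had 2 or more, and 34 (66.7%) had 1. HIST1H2BK led with 10 positions, followed by HIST1H2BE with 6, HIST1H2BH and HIST2H2BF with 5, HIST1H2BD, HIST1H2BG, HIST1H2BJ and HIST2H2BE with 4, HIST1H2BB and HIST1H2BC with 3, and HIST1H2BL, HIST1H2BM and HIST1H2BO with 1. HIST1H2BF had none in this list and 2 in each list of the fusion. In the fusion list the class had 28 positions (median 0.538%): 6 in HIST2H2BF, 4 in HIST1H2BK, 3 in HIST1H2BH and HIST2H2BE, 2 in HIST1H2BC, HIST1H2BF, HIST1H2BG and HIST1H2BJ, and 1 in HIST1H2BB, HIST1H2BD, HIST1H2BE and HIST1H2BM. In the direct list it had 26, of which HIST2H2BF had 8 and HIST1H2BG and HIST1H2BH 3 each.

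In HIST1H2BK 7 of the 10 positions of ADARcd alone had 2 or 3 edited reads. They reached 3 of 446 at chr6:27146522 (0.673%, 0.139 to 1.95) and 3 of 457 at chr6:27146531 (0.656%), with 0 of 49 and 44 in the empty vector. The other 5 had 2 edited reads each: 2 of 477 at chr6:27146453, 2 of 444 at chr6:27146545, 2 of 431 at chr6:27146583, 2 of 413 at chr6:27146669 and 2 of 486 at chr6:27146750, levels of 0.412% to 0.484%. At 2 of these positions the fusion was listed as well, with 1 edited read of 295 (0.339%) and 1 of 279 (0.358%). Its levels were lower there than the 0.450% and 0.464% of ADARcd alone, by less than the counting intervals (Fisher's exact p = 1 at both). HIST1H2BG had 3 of 473 (0.634%), HIST1H2BD 2 of 475 and 2 of 326, HIST1H2BH 2 of 386 and 2 of 357, HIST1H2BC 2 of 401 and HIST1H2BJ 2 of 300 in ADARcd alone.

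In the fusion HIST1H2BG had 2 of 189 reads at chr6:26216315 (1.06%) and 2 of 196 at chr6:26216414 (1.02%), and 2 of 35 (5.71%) at chr6:26216275, where ADARcd alone had 0 of 370, 326 and 70. HIST1H2BH had 2 of 231 (0.866%) and HIST2H2BF 2 of 694 (0.288%). A position named for HIST1H2BK and counted with H2B, chr6:27139601, had 2 of 166 (1.20%). It lies outside the model of that gene, within the span of HIST1H4I (chr6:27138588-27139881) and on the opposite strand of it.

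HIST2H2BE had the histone positions with most edited reads in both transduced libraries. At chr1:149886523, coding base 118, ADARcd alone had 4 edited reads of 1016 (0.394%, 0.107 to 1.0) and the fusion 5 of 689 (0.726%, 0.236 to 1.69), while the empty vector had 0 of 235, which allows up to 1.28%. At chr1:149886536, coding base 105, ADARcd alone had 4 of 987 (0.405%), the fusion 5 of 697 (0.717%) and the empty vector 0 of 208, which allows up to 1.44%. The counting intervals of the transduced libraries overlapped at both, and Fisher's exact test gave p = 0.498 and 0.502 (adjusted p = 0.562 and 0.565). These positions are 13 bases apart with equal edited counts and can share reads, so they are not independent. Another position of the gene, chr1:149886501, had 2 of 953 reads in ADARcd alone (0.210%).

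These are the positions at which most other H2B genes have G, as the aligned stretches show. The 21 letters around coding base 105, with G in place of the A, occur in transcripts of 14 other genes, and those around HIST1H2BK chr6:27146583 in 8. Around coding base 118 of HIST2H2BE the exact letters with G occur in 0 other genes. A read of an H2B gene with G at the matching base, placed on HIST2H2BE, would carry G there. No label or header says how reads that fit several genes were placed, and the part of such reads in the counts was not tested. With up to 3 differences allowed in the 20 flanking letters, another of the histone genes had G at the matching base for 25 of 166 coding positions of the ADARcd list (15.1%), 12 of 87 of the fusion list (13.8%) and 7 of 83 of the direct list (8.43%). Of all 5815 A in the coding sequences of these genes, 8.74% had such a match. Among the 12 shared positions, the HIST2H2BE pair, HIST1H2BK chr6:27146583, HIST1H2BE chr6:26184134 and HIST1H1B chr6:27866918 had one. The matches thus include a large part of the positions that carry the comparison. The exact 21 letters, A included, occurred in another gene for 36.4%, 41.9% and 38.1% of histone positions of the ADARcd, fusion and direct lists. The shares over all positions were 34.0%, 35.6% and 22.0%. At such positions the assignment of reads to 1 gene is uncertain.

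Over the 12 shared positions the fusion read higher than ADARcd alone at 10 and lower at 2, both in HIST1H2BK, with a median difference of 0.183 percentage points. Neighbouring positions of HIST2H2BE or HIST1H2BK can share reads, so the 12 are not all independent. At 6 of them each library had 1 edited read, so that the direction followed the depth, which was lower in the fusion at all 12 (read ratios of 0.524 to 0.706). HIST2H2BF, chr1:149812184, had the smallest p: 1 of 1088 reads in ADARcd alone (0.0919%), 4 of 742 in the fusion (0.539%) and 0 of 178 in the empty vector (Fisher's exact p = 0.165, adjusted p = 0.560). HIST1H2BE read 0.253% and 0.403%, HIST1H4F 0.215% and 0.403%, and HIST1H4I 0.350% and 0.667%, each on 1 edited read per library. Shared positions were 6.74% of the ADARcd list and 12.5% of the fusion list among histone genes, and 6.27% and 11.4% among all positions.

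**Figure D4:**
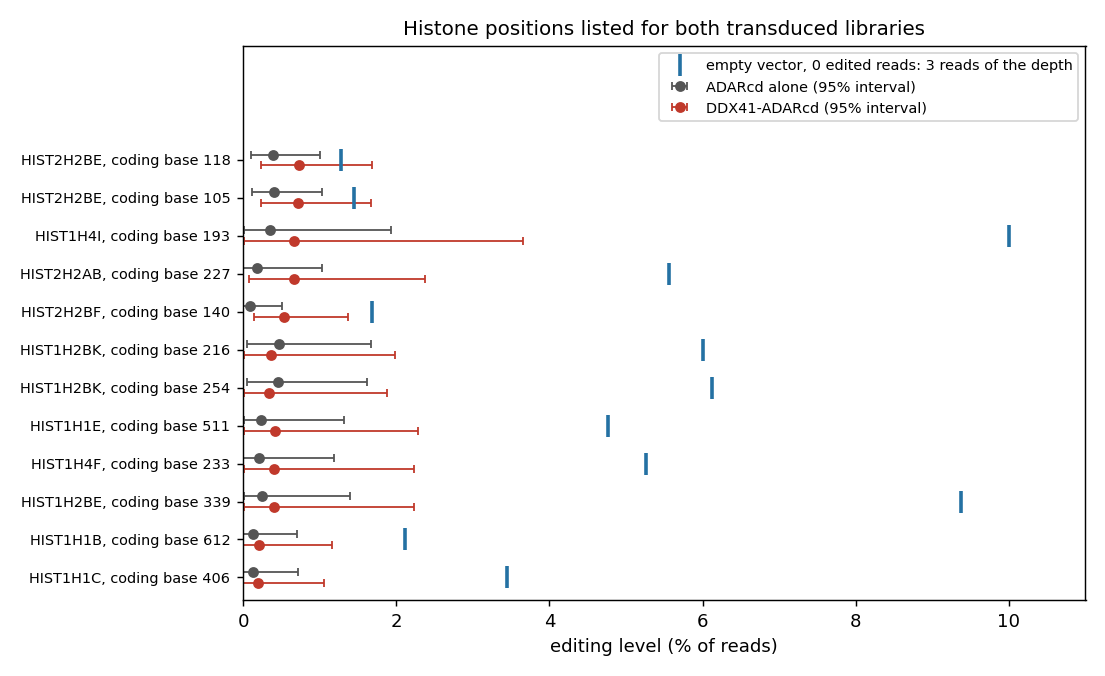
Editing level (horizontal axis, percent of reads) at the 12 histone positions listed for both transduced libraries (vertical axis, gene and coding base), with grey points for ADARcd alone, red points for the fusion, bars for exact 95% counting intervals and blue ticks for the level that 0 edited reads in the empty vector allow (3 reads of its depth). The intervals of the transduced libraries overlap at every position, and all ticks lie above both points.

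H3 genes had 24 positions in the ADARcd list (median 0.366%), 12 in the fusion list (0.631%) and 15 in the direct list. HIST1H3B had 5 and HIST1H3C 4 positions in the ADARcd list and none in the lists of the fusion, while HIST1H3J with 3 and HIST1H3I with 1 were listed for the fusion only. HIST1H3F had 4, 2 and 3 positions in the ADARcd, fusion and direct lists, HIST2H3D 1, 2 and 2, HIST2H3PS2 1, 0 and 1, and HIST1H3A, HIST1H3D and HIST1H3H 1 in each. All H3 positions of the fusion had 1 edited read. In ADARcd alone HIST1H3B had 3 of 579 at chr6:26031735 (0.518%) and 2 of 724 at chr6:26031831 (0.276%), HIST1H3C 2 of 384 (0.521%), HIST1H3F 2 of 397 (0.504%) and HIST2H3PS2 2 of 56 (3.57%), the last outside its gene model. The replacement genes H3F3A and H3F3B encode the same protein. H3F3A had 2 positions, in the ADARcd list only, with 2 of 353 in its 5′ UTR (0.567%). H3F3B had 4, 1 and 2, with 2 of 249 in its 3′ UTR (0.803%) in ADARcd alone.

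H4 genes had 19 positions in the ADARcd list (median 0.355%), 9 in the fusion list (0.667%) and 9 in the direct list. HIST1H4F had 5, HIST1H4C 4, HIST1H4D 3, HIST1H4E and HIST1H4H 2, and HIST1H4A, HIST1H4I and HIST1H4L 1 in the ADARcd list. HIST1H4B, HIST1H4K and HIST4H4 had none in it and 1 each in the direct list, and of these HIST1H4B was also in the fusion list. The other H4 genes of the fusion list were HIST1H4E, HIST1H4F and HIST1H4I with 2 positions and HIST1H4C and HIST1H4D with 1. Every H4 position of the fusion had 1 edited read. In ADARcd alone 4 positions had 2: HIST1H4D with 2 of 698 (0.287%), HIST1H4F 2 of 488 (0.410%), HIST1H4H 2 of 226 (0.885%) and HIST1H4L 2 of 438 (0.457%).

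Histone positions lay mostly in coding sequence. Coding exons held 166 of 178 in the ADARcd list (93.3%, against 69.3% over all positions), 88 of 96 in the fusion list (91.7%, against 68.3%) and 85 of 122 in the direct list (69.7%, against 56.6%). At 83.0%, 83.0% and 85.9% of the coding positions, in the same order, G gave another amino acid, beside 86.4% of all A in these coding sequences. Stop codons were read as changed in 3 genes, each on 1 edited read: H2AFZ (1 of 352) and HIST1H2BC (1 of 310) in ADARcd alone, where the stop codon became another stop codon, and HIST1H4C (1 of 274) in the fusion, where it became a codon for tryptophan.

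In the genes that hold the stem-loop letters, no listed position fell within them, and no expected number was computed for this 0. The letters began 28 to 72 bases past the coding end in these genes. HIST1H4C does not hold the exact letters and had a position of ADARcd alone 40 bases past its coding end (1 of 237). Whether that position lies in a stem-loop was not tested. HIST1H2AC had a fusion position 14 bases past its coding end (1 of 113), with the stem-loop starting at base 48, and HIST1H2BC one at 11 bases (1 of 147), with the stem-loop at 41. H2AFX, which is transcribed both with a stem-loop end and as a longer polyadenylated form, had 4 positions 744 to 912 bases past its coding end, well beyond the stem-loop at 54. In the fusion these reached 2 of 118 at chr11:119094129 (1.69%) and 2 of 60 at chr11:119094222 (3.33%), with 0 of 152 and 98 in ADARcd alone.

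The base before the edited A was more often A than any other in the ADARcd list, while C and G were about as frequent as each other in the fusion list. In the ADARcd list it was A at 40.0% of 175 histone positions on a transcript (32.7 to 47.7), C at 33.7%, G at 17.7% and T at 8.57%. In the fusion list it was A at 24.7% of 93 (16.4 to 34.8), C at 35.5%, G at 34.4% and T at 5.38%. In the direct list, which shares positions with the fusion list, it was A at 21.6% of 97, C at 39.2%, G at 34.0% and T at 5.15%. Over all A in the coding sequences of the genes the shares were 31.8%, 32.8%, 24.9% and 10.5%. G before the edited base, a neighbour that ADAR enzymes are known to disfavour, was thus below its coding share in the one list and above it in the other lists. Over all genes G stood before 25.7% of positions in the ADARcd list and 30.7% in the fusion list. Positions in paralogous genes share sequence and the lists share the empty vector library, so the difference between the lists was not tested.

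Reads over histone genes were fewer in the fusion than in ADARcd alone, by more than at other positions. At the 117 histone positions of the direct list with 10 or more reads in both libraries, the median ratio of fusion reads to ADARcd reads was 0.616 (95% interval from order statistics 0.598 to 0.637), against 0.684 over all 8827 positions. With 100 or more reads in both it was 0.626 (84 positions) against 0.701. Positions of a gene share reads, so the positions are not independent and the interval is too narrow. Of the 39 genes with a median of 100 or more fusion reads, 37 had a median ratio below that 0.701. The range over these genes was 0.471 for H2AFY to 0.738 for HIST2H2BF. By class the median over genes was 0.620 for H1, 0.595 for H2A, 0.633 for H2B, 0.580 for H3 and 0.568 for H4. HIST names had a median of 0.606 over positions and the replacement variants 0.673. With 1 library per group this ratio has no replicate check. A difference between the libraries as prepared cannot be told apart from a difference between the cells. In these bulk samples, fewer cells that express histone genes and less histone RNA per cell cannot be told apart either.

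**Figure D5:**
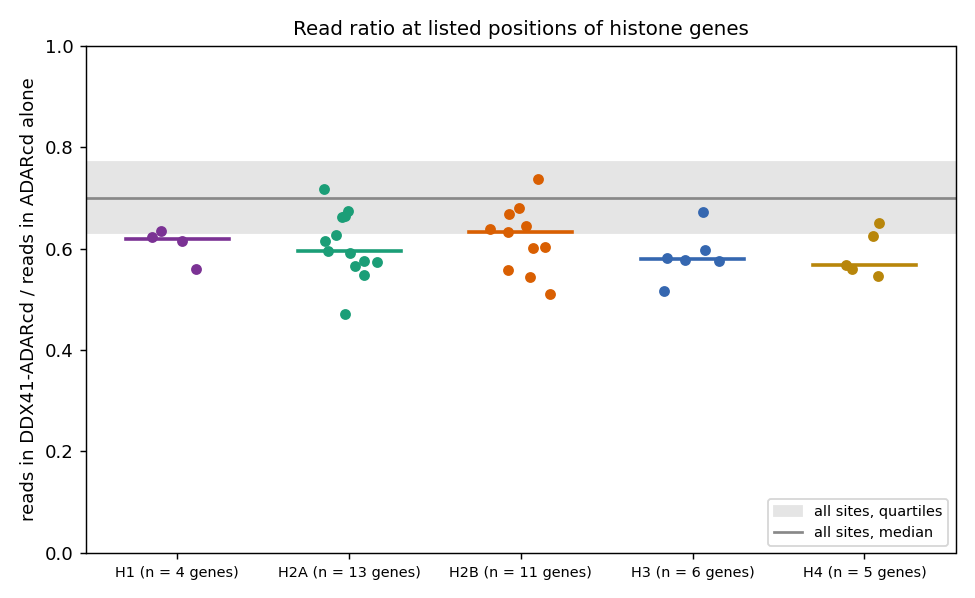
Reads in the fusion divided by reads in ADARcd alone (vertical axis, ratio of counts), for the 39 histone genes of the direct list with a median of 100 or more fusion reads (points, 1 per gene, grouped by class; short lines are class medians). The grey line and band are the median and quartiles of all positions with 100 or more reads in both libraries, and 37 of the 39 points lie below the line at 0.701.

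Against the empty vector the ratios did not keep that order in every class. The median histone position had 8.10 times as many reads in ADARcd alone as in the empty vector, against 8.77 over all positions, and 4.88 times as many in the fusion, against 5.83. The medians of H3 and H4, the lowest classes in the direct list, lay above those of all positions here. They were 8.91 (24 positions) and 9.89 (19) in ADARcd alone and 7.04 (12) and 7.85 (9) in the fusion. Their 95% intervals held the medians of all positions: 7.74 to 11.5 and 7.53 to 14.1 in ADARcd alone, 5.27 to 10.6 and 4.35 to 10.6 in the fusion. The medians of the variants were also above, at 10.4 and 6.85. Taken as a median over genes, the histone ratio of ADARcd alone was 8.26 against 7.71 over all genes, and that of the fusion 4.69 against 5.25. With 100 or more reads in the first library these medians were 8.62 against 9.35 and 4.76 against 6.31. The order for ADARcd alone thus depended on the minimum of reads. With 100 or more reads in both libraries the medians over positions were 5.16 (26 histone positions) against 6.93 for ADARcd alone. For the fusion they were 3.57 (20 histone positions) against 4.67. These lists share libraries with the direct list. Across genes, the number of listed positions went with their median depth (Spearman rho 0.531 over 50 genes in the ADARcd list and 0.488 over 43 in the fusion list), and less so in the direct list (0.198 over 48). These are descriptions across genes that share libraries, not tests.

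Genes whose products act on histones or their mRNAs were examined beside the histone genes. Of 23 genes of histone mRNA processing and transcription, 3 were listed for ADARcd alone, 4 for the fusion against the empty vector and 10 for the fusion against ADARcd alone, and 0 positions passed the adjusted Fisher's exact test. At an unadjusted p under 0.05 by the same exact test there was 1, of 36 positions tested for the fusion against ADARcd alone, beside 0.856% of all 9227. It lay in SNRPB, which encodes a core protein of spliceosomal snRNPs that also belongs to the U7 particle. The fusion had 3 of 68 reads there (4.41%) against 0 of 119 in ADARcd alone (Fisher's exact p = 0.0467, adjusted p = 0.560). SLBP, the stem-loop binding protein, had 5 positions in the direct list, at most 2 of 45 reads (4.44%). Of 33 histone chaperones 10, 9 and 20 were listed in the ADARcd, fusion and direct lists, with 61, 43 and 82 positions, and 0 positions passed the test at either threshold. NCL had 14, 17 and 19 of these and NPM1 11, 9 and 9. SET, a chaperone that binds core histones, had 15 edited reads of 230 in ADARcd alone at chr9:128693967 (6.52%, 3.70 to 10.5) against 0 of 51 in the empty vector (Fisher's exact p = 0.0813), a level above that of any histone position in the ADARcd list.

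The high mobility group proteins, which bind DNA and nucleosomes, had 7 of 10 genes and 54 positions in the ADARcd list, 6 and 23 in the fusion list and 6 and 24 in the direct list, and 0 passed Fisher's exact test at either threshold. HMGB2 had 15, 3 and 1 positions, and HMGA1 14, 6 and 7. In the 3′ UTR of HMGA1, at chr6:34245654, ADARcd alone had 12 edited reads of 286 (4.20%, 2.19 to 7.21) against 0 of 26 in the empty vector, and in the fusion the gene had at most 1 edited read at a listed position.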

How the data were processed

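The authors deposited read counts without normalization: per the file headers, each A-to-G position has the number of reads for every base, and their sum, in each of 2 libraries. Columns carry no library name, and the library that a list's title names first was read as the edited one. The submitters' processing notes list mm10 as the build, beside STAR 2.5, FastQC 0.11.7 and CASAVA 1.4, while the coordinates fit human GRCh38 (GENCODE 29). The site caller is not given in the sources used here.

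Entries repeating a position were joined. A two-sided Fisher's exact test (scipy 1.17.1, pandas 2.3.3) was run where both libraries had 10 or more reads, with Benjamini-Hochberg adjustment over all positions of a comparison; it was first tried on simulated data. Floors are 3 reads of the depth. Members and gene lists were chosen with earlier results of these data known. Named were all member genes, member positions with 2 or more edited reads or listed for both transduced libraries, and up to 4 genes of each other list. Alternatives were other minimums of reads and edited reads, Bonferroni, reads halved, a one-sided test, HIST names alone, the 7 variants alone, 6 added names, and positions under 1 name; coding exons alone and 100 reads in both libraries were chosen after seeing the data.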

Additional observations from a re-analysis of the deposited data

How the results depend on the processing

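The count of called histone positions remained 0 in each comparison under every alternative test. Requiring 2 or more edited reads left 37 of 178 positions in the list of ADARcd alone (median level 0.499% in place of 0.276%), 21 of 96 for the fusion against the empty vector (0.726% in place of 0.470%) and 28 of 122 for the fusion against ADARcd alone (1.11% in place of 0.671%), by construction. The 7 variants alone had 24, 12 and 40 positions with medians of 0.466%, 0.564% and 4.79%, a share of 66.7% with 1 edited read in the fusion against the empty vector, and a read ratio of 0.673. HIST names alone gave a median level of 0.481% for the fusion against ADARcd alone, and coding exons alone, chosen after seeing the data, 0.483%; both leave out the 18 intron positions of H2AFV. The other 64 values did not move beyond 1.5 times (counts) or their 95% interval (medians and shares). No paired analysis was possible because each group has 1 library, and no library could be left out. The depth of the empty vector, a median of 51 to 53.5 reads at histone positions, limits what could be detected.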

Other observations

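H1F0, a linker histone of non-dividing cells outside the naming rule used here, was the one gene of 6 added names (H1F0, H2AFJ, H2AFY2, H2AFB1, H3F3C and CENPA) with a listed position. It had 2 positions for ADARcd alone, 3 for the fusion against the empty vector and 8 for the fusion against ADARcd alone. Its highest count was 2 edited reads of 86 in the fusion (2.33%, 95% interval 0.283 to 8.15) at chr22:37805866, against 0 of 149 in ADARcd alone (Fisher's exact p = 0.133, adjusted p = 0.560).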
